A study of Mus musculus with 22 samples.

Results

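Trim28, Setdb1, Suv39h1, Suv39h2, Ehmt1, Ehmt2, Atrx, Daxx, Hells and Morc3 are 10 genes for silencing repeats or methylating histone H3 at lysine 9 (H3K9). They were followed in mouse chondrocytes and cartilage with and without the maintenance DNA methyltransferase gene Dnmt1. The members were found by exact match of the gene symbol, and all 10 of 10 were present in each count table, out of 40756 genes listed over all tables. Suv39h2 was higher in every cKO library than in every control library, by 9.76-fold in untreated cultures, 18.98-fold after BMP2 and 35.96-fold in cartilage. The cartilage value rests on 5 to 6 reads per control library. Over all genes tested, the groups did not overlap for 70.3%, 47.9% and 13.5% in these settings. The other 9 genes differed by at most 1.64-fold in either direction in the genotype comparisons that tested them.

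H3K9 methylation marks silent chromatin. SETDB1, brought to retrotransposons by TRIM28 and KRAB zinc finger proteins, writes it there, SUV39H1 and SUV39H2 write it at pericentromeric repeats, and EHMT2 (G9a) with EHMT1 (GLP) writes the lower methylation states in euchromatin. ATRX and DAXX place a histone H3 variant in heterochromatin, HELLS (LSH) is a chromatin remodeller needed for DNA methylation of repeats, and MORC3 is an ATPase that acts at H3K4-methylated and retrotransposon chromatin. These systems act on many of the same repeats as DNA methylation, which DNMT1 copies to the new strand after replication.

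The control groups carried floxed Dnmt1 and the cKO groups carried Prrx1-Cre with homozygous floxed Dnmt1. Prrx1-Cre is active in limb mesenchyme, from which the cartilage forms. Primary chondrocytes from knee articular cartilage of mice aged 3 to 5 days after birth were sampled without stated treatment (day 0, 3 control and 3 cKO libraries) or after 3 days of bone morphogenetic protein 2 (BMP2) at a labelled 100 ng/µl (day 3, 4 control and 4 cKO libraries). Collagenase-treated cartilage of mice at postnatal day 5 gave 4 control and 4 cKO libraries, in each genotype 2 male and 2 female. The labels call the culture libraries biological replicates but do not say whether each came from a separate animal. The p-values thus measure the spread between these samples, which may not be that between animals.

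Total counts were 41749327 to 51741478 at day 0, 14434197 to 18918714 at day 3 and 1100198 to 1888896 in cartilage, where a floor of 3 counts equals 1.59 to 2.73 CPM (counts relative to the library total). Dnmt1 itself was lower in every cKO library of each setting, with log2 fold changes of −2.44 at day 0, −1.41 at day 3 and −1.66 in cartilage (edgeR adjusted p 1.62e-08, 0.00625 and 6.34e-05). In cartilage the size of this gap depended on the counts used. The main counts gave 42.5 ± 6.18 CPM in control and 13.2 ± 1.09 CPM in cKO libraries (SD, n = 4 each). The deposited estimated counts of the same libraries gave 52.9 ± 7.60 and 30.6 ± 3.30 CPM, also without overlap. Of 8 chondrocyte markers, all 8 were present and lower in cKO cultures of both days, and 2 were called lower in cartilage. Their summed level was 1774 CPM in day 3 cKO replicate 4, against 12742 to 18044 CPM in the other day 3 cKO libraries. Summed muscle markers rose from 0.376 to 0.629 CPM in controls to 10.4 to 15.5 CPM in cKO at day 0, and from 0.203 to 1.11 CPM to 59.2 to 950.4 CPM at day 3, where they were lowest in cKO replicate 4. In cartilage they ran from 0.853 to 2.06 CPM in control and from 0.861 to 13.1 CPM in cKO libraries. Over all genes tested, 33% were called higher and 31.6% lower at day 0, 25.5% and 22.6% at day 3, and 3.15% and 3.04% in cartilage. Markers of other cell types moved too. In cartilage 3 of 3 osteoclast markers tested were called lower, their summed level running from 124 to 452 CPM in control and from 57.9 to 118 CPM in cKO libraries, and 2 of 3 blood and immune markers were called lower (151 to 762 and 18.5 to 343 CPM). At day 3, 3 of 4 osteoblast markers were called higher (44.4 to 77.7 CPM in control and 153 to 389 CPM in cKO libraries), as was the 1 adipocyte marker tested. At day 0, 4 of 6 fibroblast and connective tissue markers were called lower and 1 higher. The part of any of these in the values of the 10 genes was not tested. In bulk RNA, fewer cells of a type and less RNA per cell cannot be told apart. The cartilage libraries lay in pool 1, which held the 4 controls, and pool 2, which held the 4 cKO samples, so pool and genotype cannot be told apart.

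The promoters of Suv39h2, Suv39h1 and Hells are shown because these were the 3 genes with the widest range over the culture groups and because Dnmt1 acts on CpG dinucleotides, printed in capitals. Each sequence is RefSeq's on GRCm38.p6 and runs 300 bases, from 250 before the start of transcription to 50 after it. The positions are chr2:3474937-3475236 on the minus strand for Suv39h2, chrX:8074711-8075010 and chrX:8074312-8074611 on the minus strand for the 2 starts of Suv39h1, and chr19:38930740-38931039 on the plus strand for Hells.
Suv39h2: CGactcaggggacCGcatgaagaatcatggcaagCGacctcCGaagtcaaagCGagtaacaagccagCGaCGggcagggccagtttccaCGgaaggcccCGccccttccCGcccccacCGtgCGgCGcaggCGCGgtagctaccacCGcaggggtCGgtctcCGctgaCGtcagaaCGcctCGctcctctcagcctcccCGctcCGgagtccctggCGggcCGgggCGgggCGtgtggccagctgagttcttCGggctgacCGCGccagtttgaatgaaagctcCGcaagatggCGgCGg
Suv39h1, upstream start: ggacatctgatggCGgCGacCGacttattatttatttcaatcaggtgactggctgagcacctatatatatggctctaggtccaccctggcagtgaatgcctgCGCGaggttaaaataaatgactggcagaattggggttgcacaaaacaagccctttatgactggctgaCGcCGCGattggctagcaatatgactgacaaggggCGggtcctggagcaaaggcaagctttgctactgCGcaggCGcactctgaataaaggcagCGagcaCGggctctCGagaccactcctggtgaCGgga
Suv39h1, downstream start: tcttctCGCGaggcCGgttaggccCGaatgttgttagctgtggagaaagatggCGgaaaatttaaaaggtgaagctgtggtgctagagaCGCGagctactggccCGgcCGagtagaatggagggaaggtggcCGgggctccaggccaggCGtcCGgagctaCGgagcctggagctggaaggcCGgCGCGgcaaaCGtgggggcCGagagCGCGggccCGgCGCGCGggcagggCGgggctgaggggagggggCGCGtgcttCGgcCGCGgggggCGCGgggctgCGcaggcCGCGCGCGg
Hells: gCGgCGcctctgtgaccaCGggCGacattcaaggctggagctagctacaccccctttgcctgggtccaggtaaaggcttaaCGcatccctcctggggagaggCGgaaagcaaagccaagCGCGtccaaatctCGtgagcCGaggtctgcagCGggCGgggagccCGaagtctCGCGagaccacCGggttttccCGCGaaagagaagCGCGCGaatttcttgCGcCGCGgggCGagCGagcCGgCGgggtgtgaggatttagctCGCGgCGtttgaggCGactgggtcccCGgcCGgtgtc

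The Suv39h2 promoter held 33 CpGs, more than 91.4% of the 32851 promoters in the table, whose median was 7. The Hells promoter held 34, and those of Suv39h1 held 15 and 37. That of Ehmt1 held 34, and those of Daxx held 32 to 33 at its 3 starts. Whether these CpGs were methylated, and any part of that in the RNA values, was not tested. The E2F motif GGCGGGA or its reverse complement TCCCGCC, found in 11.3% of all promoters, occurred 1 time in the Suv39h2 promoter (144 bases before the start), 2 times in that of Trim28 and 1 time in 1 of the 2 promoters of Ehmt2. These exact letters were not in the windows of Hells or Suv39h1, and other forms of the E2F motif were not searched. The E-box CACGTG, found in 7.15% of promoters, occurred among the members only at Ehmt2. A match or its lack describes these letters alone.

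Between genes, levels were compared as CPM per kilobase of the transcript with the longest coding sequence, which needs cultures only, since the cartilage libraries count 3′ ends. In day 0 controls Trim28 stood highest at 67.1 ± 1.1 (SD, n = 3), followed by Ehmt2 at 21.7 ± 0.53. Atrx, Setdb1, Daxx and Ehmt1 followed at 12.7 ± 0.194, 11.6 ± 0.299, 11.1 ± 0.211 and 10.5 ± 0.206, with the ranges of Setdb1 and Daxx overlapping. Suv39h1 stood at 8.06 ± 0.447 and Morc3 at 7.53 ± 0.207, also with overlapping ranges, and then came Hells at 5.57 ± 0.267 and Suv39h2, the lowest, at 1.43 ± 0.103. In day 0 cKO cultures Suv39h2 stood at 13.97 ± 1.64 (SD, n = 3), behind Trim28 and Ehmt2, with a range that overlapped that of Daxx at 12.9 ± 0.915. In day 3 controls it was again lowest, at 0.515 ± 0.108 (SD, n = 4), and in day 3 cKO cultures it stood at 9.82 ± 0.935, overlapping Daxx at 11.8 ± 1.24, Setdb1 at 9.34 ± 1.11 and Suv39h1 at 7.63 ± 1.24.

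At day 0, 7 of the 10 genes rose in cKO cultures: Suv39h2, Hells, Suv39h1, Morc3, Daxx, Ehmt2 and Trim28 (edgeR quasi-likelihood test, Benjamini-Hochberg adjusted p under 0.05). The background was high, with 64.5% of the 15530 genes tested called and 33% called higher, and the median log2 fold change was 0.17 over the 10 genes and 0.01 over all genes. At day 3, 2 of 10 rose (Suv39h2 and Daxx) and 1 fell (Ehmt1), against 48.1% of 13924 genes called, 25.5% higher and 22.6% lower. Without control replicate 1, without cKO replicate 4 or with all 14 cultures in 1 fit, 5 of 10 were called at day 3, Suv39h1 and Atrx being added each time. With all 14 cultures in 1 fit, 3 of 10 were called at day 0: Suv39h2, Suv39h1 and Morc3. In cartilage, 1 of 9 genes tested rose, Suv39h2, where 6.19% of 8793 genes were called, 3.15% higher and 3.04% lower. Suv39h1 did not pass the expression filter in cartilage. Suv39h2 passed it there only through its cKO libraries, so whether it was tested depended on its level in cKO.

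**Figure D1:**
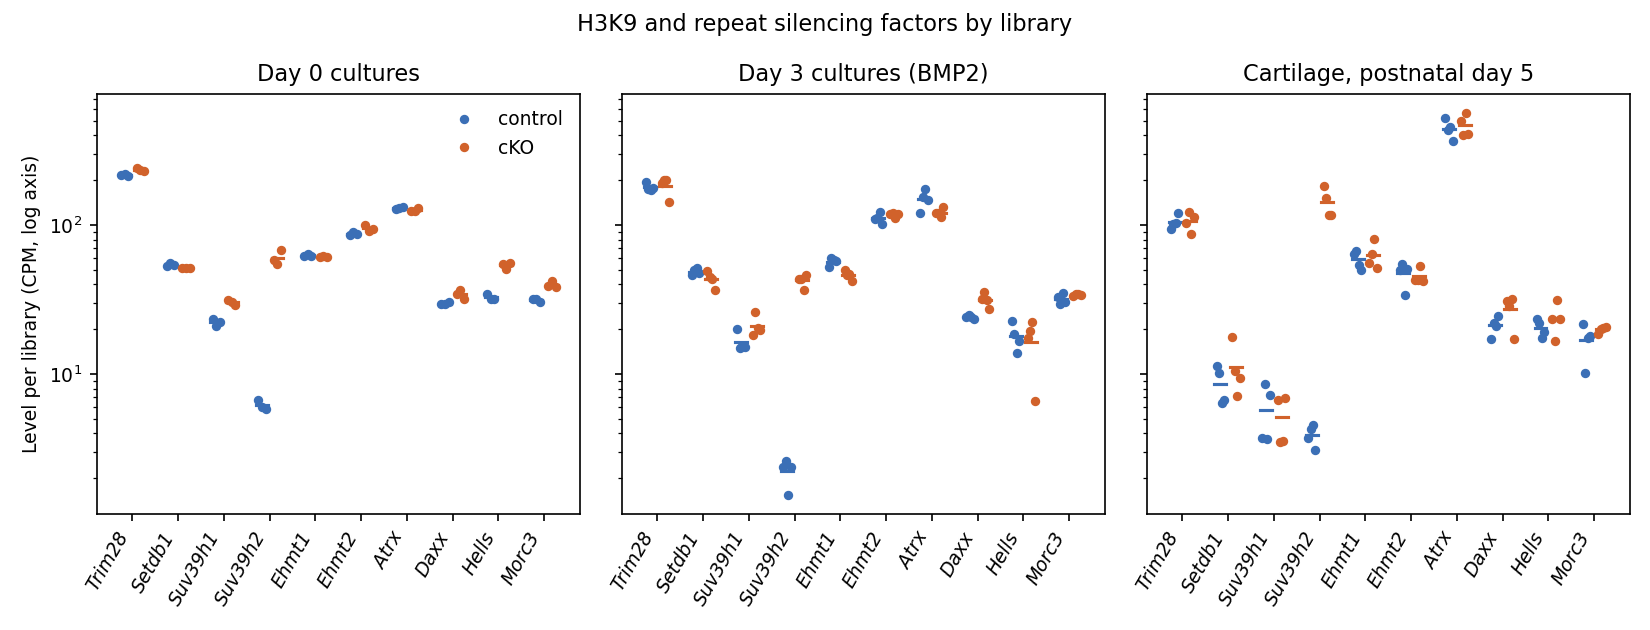
Level of the 10 genes in each library, in CPM on a log axis, for control (blue) and cKO (orange) samples; short lines are group means. Suv39h2 is the gene whose groups stand farthest apart in all 3 panels, at 5.85 to 6.69 against 54.7 to 68.4 CPM at day 0.

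**Figure D2:**
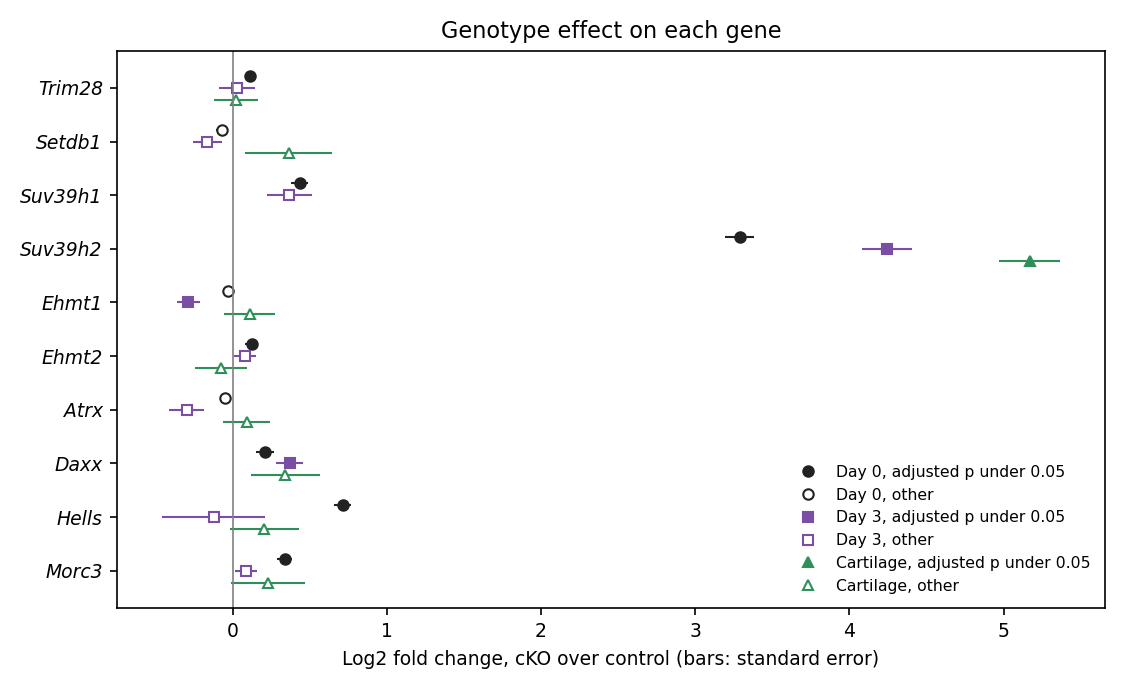
Log2 fold change of cKO over control with its standard error for each gene at day 0 (circles), day 3 (squares) and in cartilage (triangles); filled symbols have an adjusted p under 0.05. Suv39h2 lies at 3.29, 4.25 and 5.17, and the other genes lie between −0.30 and 0.71; Suv39h1 has no cartilage value.

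Suv39h2, the H3K9 methyltransferase known best from the testis and from early development, rose in all 3 settings. The gene (ENSMUSG00000026646.16) lies at chr2:3455815-3475031 on the minus strand of GRCm38. At day 0 it measured 6.69, 6.03 and 5.85 CPM in the 3 control libraries and 58.2, 54.7 and 68.4 CPM in the 3 cKO libraries, with no overlap. Group means were 6.19 ± 0.445 and 60.4 ± 7.08 CPM (SD, n = 3 each), a log2 fold change of 3.29 (edgeR adjusted p 1.42e-08, SE 0.0942). Groups did not overlap for 70.3% of all genes in that comparison.

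At day 3 the 4 control libraries measured 2.39, 2.62, 1.55 and 2.37 CPM of Suv39h2 and the 4 cKO libraries 43.7, 43.5, 36.7 and 46.1 CPM. Replicate 4, the cKO library with the fewest chondrocyte and muscle transcripts, had the highest Suv39h2 level of the 4. Its summed osteoclast markers were at 377 CPM, against 99.7 to 117 CPM in the other day 3 cKO libraries. It also had the lowest Dnmt1 level, at 11.6 CPM against 23.0 to 36.4 CPM. Replicate 3, with the next lowest Dnmt1 level at 23.0 CPM, had the lowest Suv39h2 level of the 4. The part of Dnmt1 level or cell mix in these differences between libraries was not tested. The log2 fold change of Suv39h2 was 4.25 (edgeR adjusted p 1.37e-06, SE 0.163), and it was 4.2 without cKO replicate 4. In cartilage the 4 control libraries measured 3.75, 4.27, 4.59 and 3.09 CPM and the 4 cKO libraries 183.9, 153.1, 117.7 and 116.3 CPM. These rested on 5 to 6 reads per control library, just above the floor, and 132 to 219 per cKO library. The control counts were below the 10 counts of the expression filter, so the gene passed through its cKO libraries alone. It was also called without that filter. Groups did not overlap for 13.5% of all genes in cartilage. Group means were 3.92 ± 0.654 and 142.7 ± 32.3 CPM (SD, n = 4 each), a log2 fold change of 5.17 (edgeR adjusted p 3.78e-10, SE 0.197). The deposited estimated counts of the same libraries gave 6.18 ± 2.08 and 173.3 ± 31.4 CPM.

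By log2 fold change Suv39h2 ranked number 418 among 15530 genes at day 0, number 417 among 13924 at day 3 and number 31 among 8793 in cartilage. In cartilage it was among the genes tested through its cKO libraries alone. Of 8365 genes tested in all 3 settings, 125 were called higher in each (1.49%), and Suv39h2 was the 1 member among them out of 9 that were tested in all. Ordered by the smallest absolute log2 fold change of the 3, it was number 21 of the 227 genes called in the same direction throughout.

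Exons of Suv39h2 overlap those of Dclre1c, a DNA repair nuclease gene, and of Gm13184, an antisense gene, both on the opposite strand, and whether the counting used strand is not given in the sources used here. Of the 50-base windows of the Suv39h2 transcript, 4.28% matched Dclre1c on the opposite strand, and 0 of 4278 matched any other gene on the same strand. Dclre1c had 3.92 ± 0.176 CPM in control and 6.34 ± 0.255 CPM in cKO cultures at day 0 (SD, n = 3 each), and 6.52 ± 0.189 and 7.54 ± 0.823 CPM at day 3 (SD, n = 4 each). In cartilage it had 4.43 ± 2.31 and 4.59 ± 2.41 CPM (SD, n = 4 each). Gm13184, measured here in cartilage only, ran from 0 to 0.917 CPM in control and from 2.58 to 6.12 CPM in cKO libraries, so that it was higher where Suv39h2 was higher. The part of the overlapping genes in the Suv39h2 values was not tested.

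Suv39h1, the X-linked paralog of Suv39h2, at chrX:8061171-8074760 on the minus strand, differed less between genotypes. At day 0 it rose from 23.6, 21.1 and 22.4 CPM over the control libraries to 31.3, 30.5 and 28.9 CPM over the cKO libraries (log2 fold change 0.43, edgeR adjusted p 1.11e-04, SE 0.0554). At day 3 it had 20.2, 14.9, 15.5 and 15.2 CPM in control and 18.2, 26.1, 20.6 and 19.9 CPM in cKO replicates. The groups overlapped through control replicate 1, and the difference was not called (log2 fold change 0.37, edgeR adjusted p 0.0637, SE 0.145). It was called without control replicate 1 (adjusted p 0.0248), without cKO replicate 4 (adjusted p 0.0438) and with all 14 cultures in 1 fit (adjusted p 0.0238). The cartilage libraries held 4 to 14 Suv39h1 reads per control and 4 to 8 per cKO library, too few for a test. The sex of the culture libraries is not labelled. The Y-linked gene Ddx3y was above 10 CPM in 1 of 3 libraries of each genotype at day 0 and in 2 of 4 of each at day 3, so both genotypes held the same number of such libraries. Day 3 control replicate 1 was not among them, at 0.0702 CPM of Ddx3y. The culture fits held no term for sex, and its part in the values of the X-linked genes Suv39h1 and Atrx was not tested. Gm14820, an antisense gene, matched 23.2% of the Suv39h1 transcript's windows on the opposite strand.

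The order of the 2 paralogs turned over in cKO cultures. Per kilobase, the ratio of Suv39h2 to Suv39h1, a measure chosen after the values were seen, ran from 0.167 to 0.183 in day 0 controls and from 1.15 to 1.52 in day 0 cKO libraries. At day 3 the ratio ran from 0.0642 to 0.113 in control and from 1.07 to 1.54 in cKO libraries. In cartilage the ratio of CPM ran from 0.429 to 1.25 in control and from 16.9 to 43.8 in cKO libraries, resting on the few Suv39h1 reads given above. In cultures, Suv39h2 was below Suv39h1 in every control library and above it in every cKO library. The ranges of the 2 genes over day 3 cKO libraries overlapped, at 6.56 to 9.41 per kilobase for Suv39h1 and 8.47 to 10.6 for Suv39h2.

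**Figure D3:**
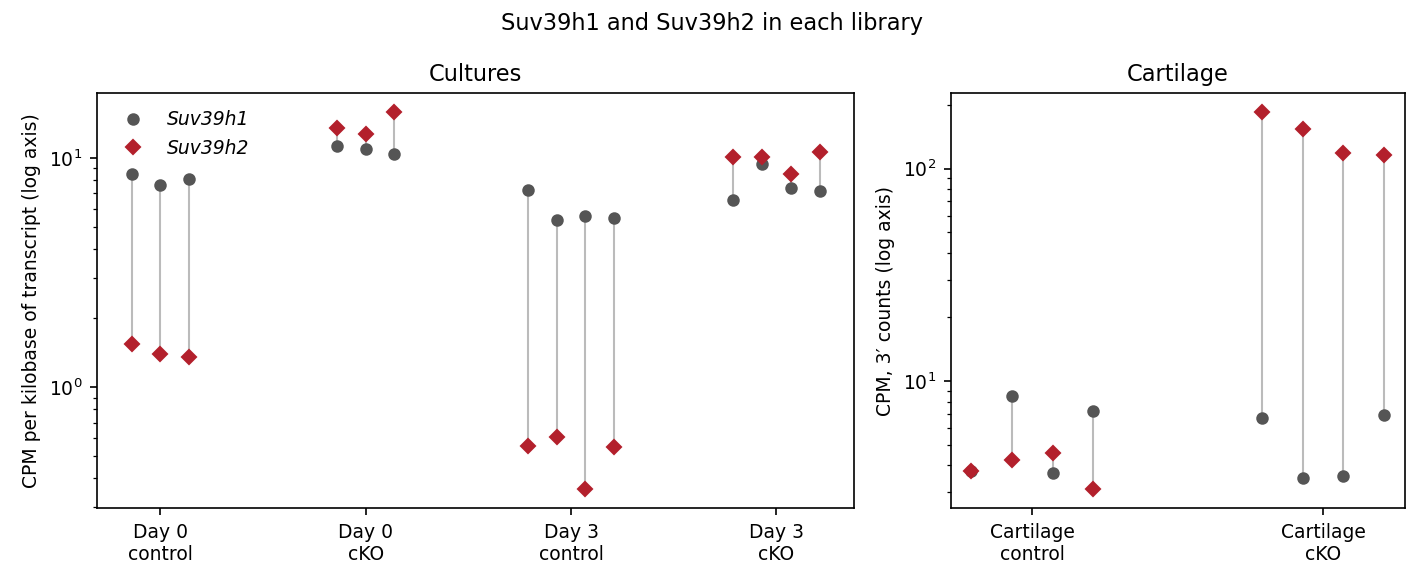
Suv39h1 (grey circles) and Suv39h2 (red diamonds) in each library, joined by a line, on log axes, as CPM per kilobase in cultures and as CPM of 3′ counts in cartilage. Suv39h2 crosses from below to above Suv39h1 in cKO cultures, from ratios of at most 0.183 to at least 1.07; in cartilage control replicate 1 both symbols coincide at 3.75 CPM.

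Ehmt2 and Ehmt1 encode the paired enzymes G9a and GLP. Ehmt2 was called higher at day 0 and Ehmt1 lower at day 3. Ehmt2, at chr17:34898469-34914052 on the plus strand, had 85.6, 89.7 and 86.6 CPM in day 0 control replicates and 100.8, 90.7 and 93.8 CPM in cKO replicates. Its log2 fold change was 0.12 (edgeR adjusted p 0.0289, SE 0.0423), and that call was lost in 8 of 11 alternatives, among them DESeq2 (adjusted p 0.0702), so it lay at the edge of the test. At day 3 Ehmt2 had 101.4 to 123 CPM in control and 112.2 to 121.3 CPM in cKO libraries (log2 fold change 0.08, edgeR adjusted p 0.393). In cartilage it had 33.9 to 54.6 CPM in control and 42.2 to 53.5 CPM in cKO libraries, a log2 fold change of −0.08 (SE 0.171) that was not called. The groups overlapped in both settings.

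Ehmt1, at chr2:24789928-24919614 on the minus strand, was the 1 member called lower in a genotype comparison. At day 3 it fell from 52.2, 59.7, 58.1 and 57.1 CPM over the control libraries to 50.2, 46.4, 47.0 and 42.2 CPM over the cKO libraries, without overlap. The log2 fold change was −0.29 (edgeR adjusted p 0.0118, SE 0.0740), and 47.9% of all genes had groups that did not overlap there. At day 0 the levels were 62.6 ± 1.23 and 61.2 ± 0.540 CPM (SD, n = 3 each), a log2 fold change of −0.03 (edgeR adjusted p 0.412). In cartilage they were 58.8 ± 8.15 and 63.0 ± 13.1 CPM (SD, n = 4 each), a log2 fold change of 0.11 (edgeR adjusted p 0.742).

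Trim28, the corepressor that binds KRAB zinc finger proteins, and Setdb1, the methyltransferase it recruits, were called in 1 genotype comparison between them, that of Trim28 at day 0. Trim28, at chr7:12999114-13031035 on the plus strand, had 217.8, 221.1 and 214 CPM in day 0 control and 241.4, 234.1 and 231.6 CPM in cKO replicates. This 1.08-fold rise passed the test, with replicates that lay close (log2 fold change 0.11, edgeR adjusted p 0.00833, SE 0.0302), and without control replicate 3 it did not (adjusted p 0.0632), nor with all 14 cultures in 1 fit (adjusted p 0.435). At day 3 Trim28 had 172.7 to 195.2 CPM in control libraries and 142.2 to 202 CPM in cKO libraries, lowest in cKO replicate 4 (log2 fold change 0.03, edgeR adjusted p 0.848, SE 0.117). In cartilage it had 105.1 ± 11.2 and 106.9 ± 15.4 CPM (SD, n = 4 each), a log2 fold change of 0.02 (edgeR adjusted p 0.945, SE 0.142).

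Setdb1, at chr3:95323525-95357202 on the minus strand, was not called in any genotype comparison. It had 52.9, 55.6 and 53.6 CPM in control and 51.9, 51.3 and 51.4 CPM in cKO replicates at day 0 (log2 fold change −0.07, edgeR adjusted p 0.123, SE 0.0363). At day 3 it had 46.5 to 51.2 CPM in control and 36.7 to 49.1 CPM in cKO libraries (log2 fold change −0.16, edgeR adjusted p 0.175). Cartilage held 6.42 to 11.3 CPM in control and 7.14 to 17.6 CPM in cKO libraries (log2 fold change 0.36, edgeR adjusted p 0.479, SE 0.282), and the groups overlapped. The estimated counts gave a log2 fold change of 0.11 there. Of the windows of its transcript, 6.08% also occur in Gm4349, with 0 of these in the last 500 bases. Its exons also overlap those of Cers2, a ceramide synthase gene on the opposite strand, which had 183.1 ± 6.67 CPM in day 0 controls (SD, n = 3). Cers2 was lower in cKO cultures at day 0 (log2 fold change −0.13, edgeR adjusted p 0.00779). It was not called at day 3 (0.10) or in cartilage (−0.05). From day 0 to day 3 it fell in control (−0.60, adjusted p 6.32e-05) and cKO cultures (−0.38, adjusted p 0.00159). The part of Cers2 in the Setdb1 values was not tested.

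Atrx and Daxx encode partners in a histone chaperone complex. Daxx rose on both days, and Atrx was called in no genotype comparison. Daxx, at chr17:33909414-33915590 on the plus strand, rose at day 0 from 29.3, 29.4 and 30.4 CPM to 34.7, 36.7 and 31.8 CPM (log2 fold change 0.21, edgeR adjusted p 0.00935, SE 0.0566). At day 3 it rose from 24.2, 25.1, 24.3 and 23.6 CPM to 31.7, 35.4, 31.4 and 27.3 CPM (log2 fold change 0.37, edgeR adjusted p 0.00807, SE 0.0875). The groups did not overlap on either day, as for 70.3% of all genes at day 0 and 47.9% at day 3. Suv39h2 and Daxx were the members called in the same direction on both days in the separate fits. With all 14 cultures in 1 fit the day 0 call of Daxx was lost (edgeR adjusted p 0.067), and Suv39h1 was called higher on both days (adjusted p 0.019 and 0.0238). The cartilage levels of Daxx were 21.3 ± 3.10 and 27.3 ± 6.86 CPM (SD, n = 4 each), a log2 fold change of 0.34 (edgeR adjusted p 0.400, SE 0.225). Its cartilage cKO replicate 4, at 17.23 CPM, lay just below the lowest control library, at 17.26 CPM.

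Atrx, at chrX:105797615-105929403 on the minus strand, encodes the ATPase of that complex. It had 128.2, 130.2 and 132.2 CPM in day 0 control and 123.4, 124.1 and 129.6 CPM in cKO replicates (log2 fold change −0.05, edgeR adjusted p 0.172, SE 0.0303). At day 3 it had 119.8, 154.2, 174.2 and 147.6 CPM in control and 119.6, 120.6, 112.7 and 131.6 CPM in cKO replicates. The groups overlapped through control replicate 1, and the log2 fold change was −0.30 (edgeR adjusted p 0.0567, SE 0.113). Without control replicate 1 it was −0.40 and called (adjusted p 0.00978), and it was also called without cKO replicate 4 (−0.35, adjusted p 0.0269) and with all 14 cultures in 1 fit (−0.31, adjusted p 0.00781). In cartilage, where its 3′ count was the highest of the 10, Atrx had 443.7 ± 65.3 and 471.1 ± 78.8 CPM (SD, n = 4 each), a log2 fold change of 0.09 (edgeR adjusted p 0.772).

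Hells, at chr19:38930915-38971051 on the plus strand, rose second most at day 0. It measured 34.5, 31.9 and 31.7 CPM in control and 55.1, 50.5 and 55.2 CPM in cKO replicates (log2 fold change 0.71, edgeR adjusted p 3.58e-06, SE 0.0530). Of 25 S phase and mitosis genes, 24 were called higher in the same comparison, where 33% of all genes were. Their summed level rose from 1906 to 2076 CPM in control to 2538 to 2784 CPM in cKO libraries. The part of these genes in the rise of Hells was not tested. When all 14 culture libraries were fitted together the log2 fold change of Hells at day 0 stayed at 0.72 but was not called (adjusted p 0.0709).

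At day 3 Hells had 22.7, 18.7, 13.9 and 16.8 CPM in control replicates and 17.5, 19.5, 22.4 and 6.55 CPM in cKO replicates. Groups overlapped, and cKO replicate 4 was lowest, as it was for the summed S phase and mitosis genes, at 603 CPM against 832.6 to 1065 CPM in the other cKO libraries. The log2 fold change was −0.12 (edgeR adjusted p 0.784, SE 0.333), and 0.13 without that library (adjusted p 0.494). In cartilage Hells had 20.5 ± 2.71 and 23.7 ± 5.97 CPM (SD, n = 4 each), a log2 fold change of 0.21 (edgeR adjusted p 0.633), while the summed cell cycle genes ran from 676.9 to 796.1 CPM in control and from 430.3 to 813.1 CPM in cKO libraries. Of the Hells transcript's windows, 0.773% also occur in other genes.

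**Figure D4:**
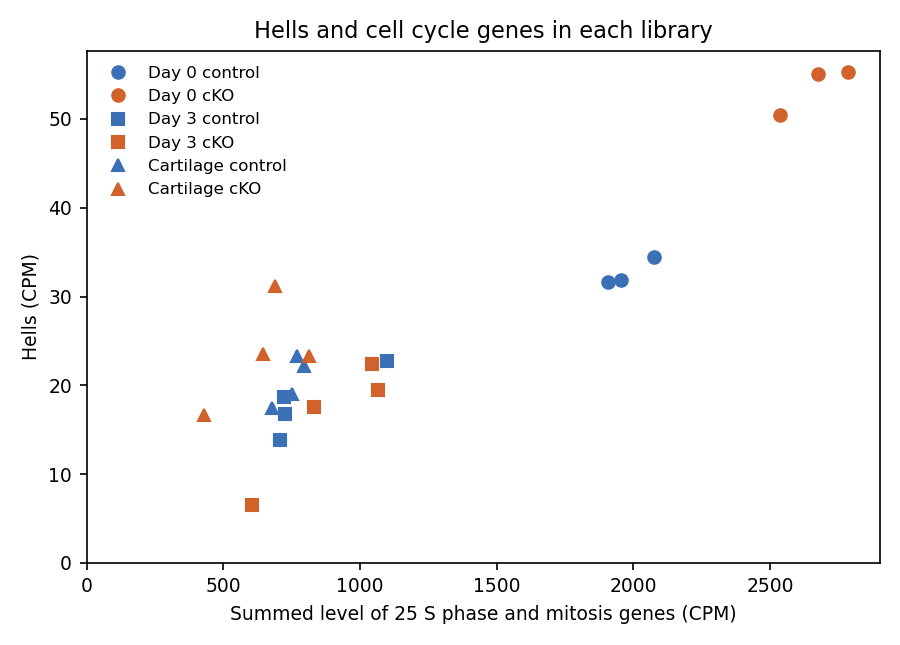
Hells level against the summed level of 25 S phase and mitosis genes in each library, both in CPM. Day 0 cKO libraries lie highest on both axes (50.5 to 55.2 CPM of Hells), and day 3 cKO replicate 4 lies lowest on the Hells axis (6.55 CPM).

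Morc3, at chr16:93832121-93876073 on the plus strand, rose at day 0 from 31.9, 32.0 and 30.5 CPM to 38.8, 41.96 and 38.6 CPM (log2 fold change 0.34, edgeR adjusted p 2.23e-04, SE 0.0482). At day 3 its cKO libraries lay close together, at 33.3 to 34.4 CPM, within the control range of 29.5 to 35.2 CPM (log2 fold change 0.09, edgeR adjusted p 0.348, SE 0.0723). The cartilage levels were 16.9 ± 4.82 and 19.9 ± 1.01 CPM (SD, n = 4 each), a log2 fold change of 0.23 (edgeR adjusted p 0.618).

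From day 0 to day 3 most members fell in both genotypes. Day, BMP2 and count table changed together, so these cannot be told apart. The 14 culture libraries were fitted together here, which scales CPM slightly differently from the fits above. In control cultures 7 of 10 fell and 1 rose, against 56.9% of 14909 genes called, 28.8% lower and 28.1% higher. In cKO cultures 8 of 10 fell and 1 rose, against 62.2% called, 29.8% lower and 32.4% higher. Of the 25 S phase and mitosis genes, 23 were called lower in control and 24 in cKO cultures.

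Suv39h2 fell from 6.45 ± 0.461 (SD, n = 3) to 2.17 ± 0.461 CPM (SD, n = 4) in control cultures (log2 fold change −1.57, edgeR adjusted p 1.91e-06, SE 0.146). In cKO cultures it fell from 63.1 ± 7.47 (SD, n = 3) to 40.9 ± 3.64 CPM (SD, n = 4; log2 fold change −0.63, edgeR adjusted p 4.64e-04, SE 0.117). Hells fell by 0.96 on the log2 scale in control (edgeR adjusted p 0.0116) and by 1.81 in cKO cultures (adjusted p 1.3e-04). Suv39h1 fell by 0.55 and 0.63. Trim28, Setdb1, Ehmt1 and Daxx fell by 0.24 to 0.39 in control cultures and by 0.24 to 0.51 in cKO cultures, and the largest of these was Ehmt1 in cKO. The fall of Setdb1 in control cultures was not called without day 0 control replicate 2 (edgeR adjusted p 0.0703) or day 3 control replicate 1 (0.051), and that of Daxx in cKO cultures was not called without day 0 cKO replicate 1 (0.0566) or 2 (0.0899). Ehmt2 alone rose, with log2 fold changes of 0.25 in control (edgeR adjusted p 0.00432) and 0.19 in cKO cultures (adjusted p 0.0193). The call in cKO cultures was lost without an expression filter (adjusted p 0.0596), without day 0 cKO replicate 2 (0.103) or 3 (0.0678), and without day 3 cKO replicate 1 (0.0713) or 2 (0.0889). Morc3 fell in cKO cultures (−0.34, edgeR adjusted p 3.31e-04) and had a log2 fold change of −0.07 in control cultures (adjusted p 0.330). Atrx was not called in either (0.10 and −0.17, adjusted p 0.412 and 0.130). Without day 3 control replicate 1 Atrx was called in both (0.19 and −0.17, edgeR adjusted p 0.0319 and 0.0306).

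**Figure D5:**
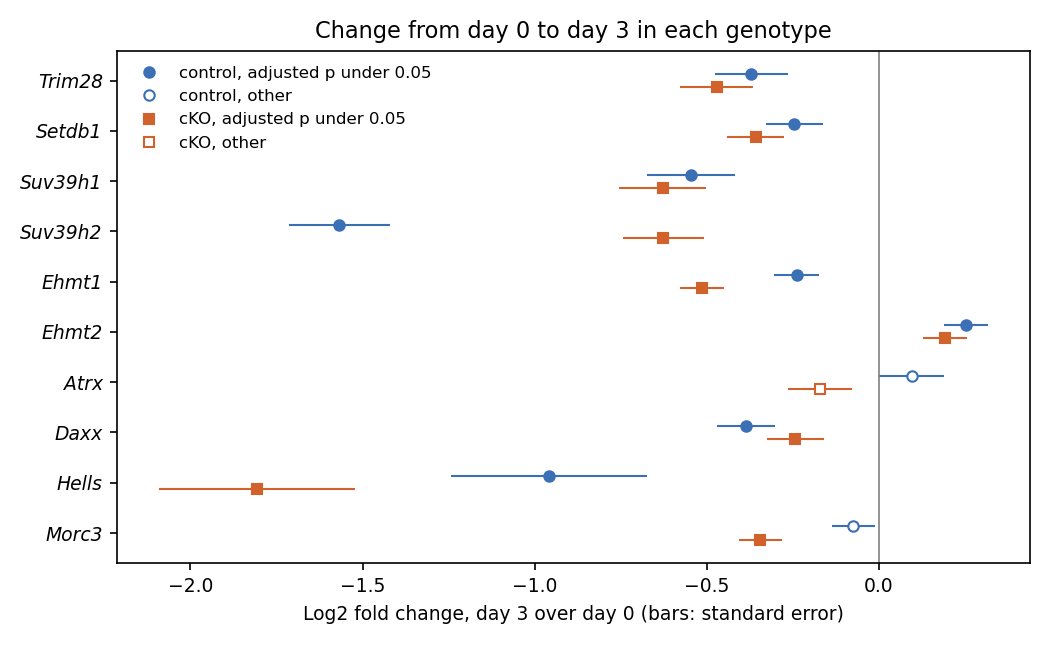
Log2 fold change of day 3 over day 0 with its standard error for each gene in control (blue circles) and cKO (orange squares) cultures; filled symbols have an adjusted p under 0.05. Suv39h2 at −1.57 and −0.63 and Hells at −0.96 and −1.81 have the widest gaps between genotypes, of which that of Suv39h2 passed the interaction test; Ehmt2 is the gene that rose.

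The difference between the genotype effects of the 2 days was tested as an interaction, which 16.8% of 14909 genes passed, 9.94% with a higher effect at day 3 and 6.89% with a lower one. Of the 10 members 1 passed: the effect on Suv39h2 was larger at day 3 by 0.94 on the log2 scale (edgeR adjusted p 0.00548, SE 0.189). Hells had the next largest difference, −0.85 with a wide error (edgeR adjusted p 0.177, SE 0.406), and without day 3 cKO replicate 4 it was −0.58 and called (adjusted p 0.0291). Morc3 at −0.27 (edgeR adjusted p 0.0516) and Ehmt1 at −0.27 (adjusted p 0.0592) lay near the threshold, and both were called without that library (adjusted p 0.0459 and 0.0354) and with DESeq2 (0.0313 and 0.0114). The difference for Atrx was called without day 3 control replicate 1 (−0.36, edgeR adjusted p 0.0211).

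Among 36 partner genes of these pathways, listed with earlier results known, 19 of 35 tested rose and 7 fell in cKO cultures at day 0, 5 of 34 rose and 7 fell at day 3, and 2 of 24 rose in cartilage. Over all genes 33% were called higher and 31.6% lower at day 0, 25.5% and 22.6% at day 3, and 3.15% higher in cartilage. The partners' median log2 fold changes were 0.11, −0.07 and 0.15, against 0.01 over all genes in each setting. Resf1, a regulator of SETDB1 at retroelements, was called in all 3 settings (1.36, 0.61 and 0.66, edgeR adjusted p 3.59e-08, 1.08e-04 and 0.0388). Morc1, a germ cell ATPase that represses transposons, went up at day 0, from 0.126 ± 0.0185 CPM in control to 4.31 ± 0.0387 CPM in cKO cultures (SD, n = 3 each; edgeR adjusted p 4.28e-08). At day 3 it had 0 reads in all 4 control libraries and 20.8 to 24.7 CPM in cKO libraries, at least 117-fold higher against a floor of 3 counts per library. Atf7ip2, a relative of the SETDB1 cofactor ATF7IP, rose at day 0 (log2 fold change 2.35), on 8 to 12 reads per control library. Zfp809, a KRAB zinc finger protein that targets retroviral sequence, rose at day 3 (log2 fold change 1.01). Mga, a subunit of a repressive Polycomb complex, was the other gene called in cartilage (0.59, edgeR adjusted p 0.0238). DESeq2 called 1 of the 2 in cartilage. The largest falls were those of Morc4 (−0.61), Tasor (listed as Fam208a, −0.38) and Wiz, a zinc finger partner of G9a and GLP (−0.19), at day 0, and of Cbx1, which encodes a heterochromatin protein 1 (−0.54), Setdb2 (−0.49) and Morc4 (−0.48) at day 3.

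Of the H3K9 demethylases, 6 of 9 tested fell and 1 rose in cKO cultures at day 0, where 31.6% of all genes were called lower and 33% higher. At day 3, 5 of 9 fell, where 22.6% of all genes were called lower. The median log2 fold change was −0.24 on both days, and 0.01 over all genes. The largest falls at day 0 were those of Kdm7a (−1.15), Kdm4a (−0.57) and Kdm4b (−0.57), and at day 3 those of Phf2 (−0.34), Kdm4a (−0.32) and Kdm4c (−0.31). Jmjd1c rose at day 0 (0.09) and fell at day 3 (−0.30). In cartilage edgeR and DESeq2 each called 0 of 9, and 1 had an unadjusted p under 0.05.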

How the data were processed

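Messenger RNA was measured in 22 samples. For the cultures the authors deposited estimated counts per gene, 1 table per day, not whole in part and rounded here. For cartilage the authors deposited whole-number counts per gene, used as the main values, and estimated counts of the same libraries, used as an alternative. Culture libraries came from a stranded kit, and cartilage libraries from BRB-seq, a barcoded 3′ method with molecular identifiers, per the labels' protocols. The submitters' processing notes name UMI-tools 1.1.1, Trim Galore 0.6.7, HISAT2 2.2.1, featureCounts 2.0.1, DESeq2 1.34.0 and GRCm38, without saying which table each made. The culture aligner and counter are not given in the sources used here.

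Gene positions came from GENCODE on GRCm38 and promoters from RefSeq, which held all 10 members. Of 34866 culture identifiers, 34582 were found in the gene reference by the identifier without its version number. No per-sample column was left unused (0).

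Tests used edgeR 4.0.16 (quasi-likelihood) in R 4.3.3 with TMM scaling, filterByExpr (10 counts, 15 in total), and p-values were adjusted by Benjamini-Hochberg across every gene that passed. Each genotype comparison was fitted alone, and the cartilage fit included sex. A joint fit of 14 culture libraries gave the day changes and the interaction. CPM are scaled by TMM factors, and the SE is the absolute log2 fold change over the square root of F. The procedure was tested on simulated data. Floors and intervals cover counting error only. Alternatives were DESeq2 1.42.0, other size factors, no filter, a replicate block, all 14 cultures, the estimated counts, no sex covariate and leaving out each library.

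Members and gene lists were chosen with earlier results of these data known. All 10 members are named in every comparison. Of each list, at most 6 called genes are named, up to 3 in each direction, by the largest absolute log2 fold change. For the 3 members with the widest range, the 3 genes most correlated over cultures are named.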

Additional observations from a re-analysis of the deposited data

Results flagged for a closer look

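Over 40 sets of a gene in a group of 4 libraries, 2 had an extreme library by Dixon's criterion, and chance gives about 1 in 20. Suv39h1 in day 3 control replicate 1 was 20.2 CPM, and the nearest control library had 15.5 CPM. Ehmt2 in cartilage cKO replicate 3 was 53.5 CPM, and the nearest cKO library had 42.9 CPM. The genotype effect on Suv39h2 differed between the days by 0.94 on the log2 scale (edgeR interaction, adjusted p 0.00548), larger at day 3.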

How the results depend on the processing

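Suv39h2 kept its direction and its call in all 3 genotype comparisons, both day changes and the interaction under every alternative run, with log2 fold changes of 3.19 to 3.35 at day 0, 4.10 to 4.33 at day 3 and 4.82 to 5.30 in cartilage. With all 14 cultures in the fit, genes called at day 0 went from 10023 to 6260 and members called from 7 to 3, and members called at day 3 from 3 to 5. Without an expression filter, genes called in cartilage went from 544 to 1044. In the interaction, members called went from 1 to 3 with DESeq2 and to 2 with the other size factors. Trim28 in cartilage changed sign without a filter (−0.016) and with estimated counts (−0.0096), as did Ehmt1 with estimated counts (−0.049). The cause was not tested.

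Leaving out 1 library at a time, members called at day 3 ranged from 3 to 5, genes called in cartilage from 362 to 630 (lowest without cKO replicate 4), and in the interaction genes called from 1591 to 4051, against 2509, and members called from 1 to 4. The highest of these came without day 3 cKO replicate 4. Log2 fold changes that crossed 0 were those of Trim28 (−0.015 to 0.13) and Hells (−0.30 to 0.13) at day 3, of Trim28 (−0.071 to 0.13), Ehmt1 (−0.085 to 0.19) and Atrx (−0.043 to 0.18) in cartilage, and of Trim28 (−0.16 to 0.015) and Suv39h1 (−0.21 to 0.030) in the interaction; none of these was called in the main fit or after crossing.

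The correlations of same-numbered deviations between genotypes ran from −0.145 to 0.265. The best match was the own number for day 0 replicate 3 and cartilage replicates 1 and 2, and another number for the rest. In cartilage, equal numbers also share sex by the labels. With so few libraries these values cannot show whether the numbers pair the samples, and the main fits treated them as unpaired. With the replicate block, genes called were 9724, 5391 and 576 at day 0, day 3 and in cartilage, 8241 and 9011 in the day changes and 2490 in the interaction, and members called were 6, 2, 1, 7, 9 and 1. The calls lost with the block were those of Ehmt2 at day 0 (adjusted p 0.0516), Ehmt1 at day 3 (0.0525, at a fold change of −0.29 on the log2 scale) and Setdb1 from day 0 to day 3 in control (adjusted p 0.0551).

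Depth limited cartilage, where Suv39h1 could not be tested and 8793 genes passed the filter.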

Other observations

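Germline genes that DNA methylation and H3K9 or Polycomb complexes are known to silence together were higher in cKO samples of each setting by their summed level. Of a list of 20, edgeR called 20 of 20 tested higher at day 0, 15 of 16 tested at day 3 and 5 of 5 tested in cartilage, where 19 were in the table. Of those tested, 10, 10 and 4 had 1 group at or under the floor of 3 counts, so they passed the expression filter only through the group where they were high, and the counts of calls do not support a direction. Their summed level went from 5.93 to 6.84 CPM in control to 271.7 to 303 CPM in cKO libraries at day 0. It went from 4.12 to 6.39 CPM to 215.6 to 239.2 CPM at day 3 and from 9.39 to 14.4 CPM to 268.7 to 292.1 CPM in cartilage. The list was written with earlier results of these data known and is not independent evidence of its direction. Tex19.1, a germ cell gene, had at most 3 counts in each control library of all 3 settings and was at least 838-fold, 244-fold and 17.9-fold higher in cKO samples against that floor.

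Over 14 culture libraries and 11865 genes, the genes whose log2 CPM followed Suv39h2 most closely were Pnpt1 (Pearson r 0.992), a mitochondrial RNA-processing enzyme, Rbm20 (0.992), a splicing factor of muscle, and Herc4 (0.985). Those nearest to Hells were Rfc4 (0.992), a clamp loader subunit, Cdc25b (0.990), a mitotic phosphatase, and Wdhd1 (0.989), a replication factor. Those nearest to Suv39h1 were Chordc1 (0.966), Gtse1 (0.964) and Ywhah (0.963). The libraries share 4 groups and 2 tables, so these values describe group patterns. In cartilage, which did not enter that ranking, Pnpt1 was 9.24 ± 2.03 CPM in control and 170.9 ± 29.5 CPM in cKO samples (SD, n = 4 each), Rbm20 was 2.95 ± 2.44 and 7.80 ± 2.77 CPM, and Herc4 was 22.9 ± 4.68 and 26.6 ± 2.64 CPM.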
